A study of Rattus norvegicus with 15 samples.

Results

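The expression of 10 genes of the NF-kB system was examined in cultured rat brain microvascular endothelial cells (BMECs) 12 h and 24 h after x-ray exposure. The genes encode the NF-kB subunits Rela, Relb, Nfkb1 and Nfkb2, the inhibitors and feedback genes Nfkbia, Nfkbiz, Tnfaip3 and Birc3, and the leukocyte adhesion molecules Icam1 and Vcam1. They were chosen by name, as all transcript rows that carry the gene's symbol together with unnamed rows of a locus that holds no other symbol. This gave 10 of the 37367 genes and 35 of the 85322 transcript rows in the table, comprising 18 annotated rows and 17 that the authors' assembly added. All 10 genes were in the table, and 9 passed the limit of a mean of 0.5 FPKM (sequenced fragments, scaled to transcript length and library size) and were tested. Vcam1 stayed below it.

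The primary cultures were prepared from the cerebral cortex of Sprague Dawley littermates of both sexes aged 2 to 3 weeks, and 15 messenger RNA libraries were sequenced, with 5 groups of 3 biological replicates. The control group was not irradiated, received the other handling of the exposed cultures and is labelled as cultured for 12 h, and the other groups were irradiated once, with either 5 Gy or 20 Gy, and collected 12 h or 24 h later. No unexposed culture of 24 h was analysed here, so at 24 h the effect of the dose and of the longer culture cannot be told apart. Which animals each culture came from was not given in the sources used here, and p-values measure the spread between these libraries.

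The libraries held 5.44 to 7.49 gigabases of aligned sequence each. Of 10 endothelial markers, 9 were in the table, and Pecam1 had no row, so its expression is not known here. Only Flt1 reached a mean of 1 FPKM, while Tie1 and Emcn were listed at 0 in every library and Cdh5 was at most 0.275 FPKM. The summed endothelial markers ranged from 2.02 to 6.15 FPKM over all groups, so the labelled cell type was not borne out by the defining markers that had a row. All 6 fibroblast markers were detected, and their sum was 1798 to 1987 FPKM in the control libraries, 1273 to 1547 at 12 h and 272 to 326 at 24 h. The collagens Col1a1, Col1a2 and Col3a1 fell most at 24 h, while Pdgfra had a mean of 52.1 FPKM in the control group and 60.8 and 51.6 at 24 h. Pericyte markers summed to 54.4 to 62.1 FPKM in the controls, 43.8 to 48.8 at 12 h and 16.04 to 26.9 at 24 h. This sum was mostly Pdgfrb and Cspg4, with Rgs5 at most 0.227 FPKM and Kcnj8 and Abcc9 at 0. Astrocyte markers summed to 466 to 1174 in the control and 12 h libraries and 322 to 434 at 24 h. Most of that sum was Gja1, with a control mean of 623 FPKM, while Gfap was at most 0.182 and Aqp4 at 0. Aldh1l1 went the other way, from 9.52 FPKM in the control group to 20.8 and 23.7 at 24 h (5 Gy, then 20 Gy). Markers of microglia and macrophages summed to 0.174 to 1.82 FPKM. The part of the cell mixture in the results was not tested, and fewer cells of a type and less RNA per cell cannot be told apart in these bulk libraries.

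NF-kB is a family of dimeric transcription factors built from RelA, RelB, c-Rel, p50 and p52, where p50 and p52 are cut from the precursors that Nfkb1 and Nfkb2 encode. In resting cells, IkB proteins hold the dimers in the cytoplasm until the IKK kinases mark IkB for breakdown, which can be started by cytokine receptors or by DNA damage. Several of its target genes, such as Nfkbia and Tnfaip3, encode proteins that switch the pathway off again. In vessels, NF-kB is known for driving the adhesion molecules ICAM-1 and VCAM-1, by which leukocytes attach to the endothelium.

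To show what DNA lies before these genes, the promoters of a gene that was higher at 24 h (Nfkbia), of one with a larger rise from a lower level (Tnfaip3), of the one that fell (Nfkbiz) and of both adhesion molecules are printed. Each runs 300 bases from 250 before the annotated start to 50 after it, in the direction of the gene, from RefSeq on the assembly GRCr8, at chr6:78597023-78597322 (reverse strand), chr1:15543930-15544229 (reverse), chr11:58251471-58251770 (forward), chr8:27829595-27829894 (forward) and chr2:206742734-206743033 (reverse). Capitals mark full matches on either strand to the NF-kB consensus GGGRNNYYCC (R is A or G, Y is C or T, N is any base). GRCr8 is not the build of the expression table, so these coordinates are not comparable with those given for the genes.
Nfkbia: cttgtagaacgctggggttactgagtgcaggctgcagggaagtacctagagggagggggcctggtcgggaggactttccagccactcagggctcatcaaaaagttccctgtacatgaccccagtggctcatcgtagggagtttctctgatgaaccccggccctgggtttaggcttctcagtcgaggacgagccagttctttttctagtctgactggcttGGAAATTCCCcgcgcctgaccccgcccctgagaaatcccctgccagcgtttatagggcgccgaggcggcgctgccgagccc
Tnfaip3: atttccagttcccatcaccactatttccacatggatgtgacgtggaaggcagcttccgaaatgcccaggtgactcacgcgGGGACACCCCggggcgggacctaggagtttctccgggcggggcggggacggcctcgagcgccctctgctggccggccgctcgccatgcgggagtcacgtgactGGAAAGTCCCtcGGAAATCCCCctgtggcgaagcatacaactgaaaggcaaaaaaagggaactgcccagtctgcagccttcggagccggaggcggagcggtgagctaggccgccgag
Nfkbiz: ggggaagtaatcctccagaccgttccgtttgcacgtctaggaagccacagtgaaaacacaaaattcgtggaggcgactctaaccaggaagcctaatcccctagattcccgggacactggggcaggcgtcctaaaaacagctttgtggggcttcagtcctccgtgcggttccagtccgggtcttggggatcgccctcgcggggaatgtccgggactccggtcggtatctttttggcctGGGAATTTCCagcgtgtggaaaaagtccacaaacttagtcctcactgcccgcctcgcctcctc
Vcam1: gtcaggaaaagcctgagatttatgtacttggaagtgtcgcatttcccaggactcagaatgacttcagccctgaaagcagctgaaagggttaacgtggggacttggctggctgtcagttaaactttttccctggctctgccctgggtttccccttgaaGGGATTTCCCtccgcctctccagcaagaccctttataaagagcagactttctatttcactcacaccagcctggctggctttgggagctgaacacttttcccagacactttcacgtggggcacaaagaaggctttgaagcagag
Icam1: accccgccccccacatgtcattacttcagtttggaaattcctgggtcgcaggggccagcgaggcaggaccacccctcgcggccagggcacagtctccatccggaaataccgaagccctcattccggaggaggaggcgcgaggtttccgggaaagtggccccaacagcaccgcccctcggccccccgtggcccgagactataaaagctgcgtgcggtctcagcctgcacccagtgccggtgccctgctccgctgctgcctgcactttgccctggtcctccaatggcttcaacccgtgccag

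RefSeq promoters were found for 8 of the 10 genes, with none for Relb and Birc3, and 6 of the 8 held a match. Among all 33469 promoters of this length, 7.51% held one, and among the 9984 promoters of tested genes 10.3% did. In Nfkbia the match GGAAATTCCC began 31 bases before the start. Tnfaip3 held matches at 3 positions, GGGACACCCC, GGAAAGTCCC and GGAAATCCCC, of which the last began 55 bases before the start. The match of Nfkbiz was GGGAATTTCC, which also occurred in the promoter of Nfkb1, and that of Nfkb2 was GGGACTTTCC. Vcam1 held GGGATTTCCC. In Icam1 and Rela no stretch of the window met this pattern in full. Stretches that depart from it, such as tggaaattcc in Icam1 and gggtttcccc in Vcam1, were not marked or counted. The absence of a match is therefore not the absence of an NF-kB site. A match is a description of the sequence. The genes with a match included Tnfaip3, which was higher at 24 h, Nfkbiz, which was lower, and Vcam1, which was near 0 in every group.

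Levels are given as the FPKM summed over the rows of a gene, which is divided by transcript length. In the control group, Icam1 had the highest level at 125 ± 4.12 FPKM (SD, n = 3). It was followed by Nfkbia at 38.5 ± 2.89, Rela at 29.8 ± 0.884, Nfkb1 at 19.1 ± 2.14, Nfkb2 at 16.5 ± 1.41 and Nfkbiz at 16.4 ± 0.978 FPKM (SD, n = 3 each). The control libraries of Nfkb1, Nfkb2 and Nfkbiz overlapped, and those of the other neighbours in this order did not. Lower down were Relb at 6.15 ± 0.652 and Tnfaip3 at 1.49 ± 0.301 FPKM, while Vcam1 at 0.44 ± 0.15 and Birc3 were close to 0.

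**Figure D1:**
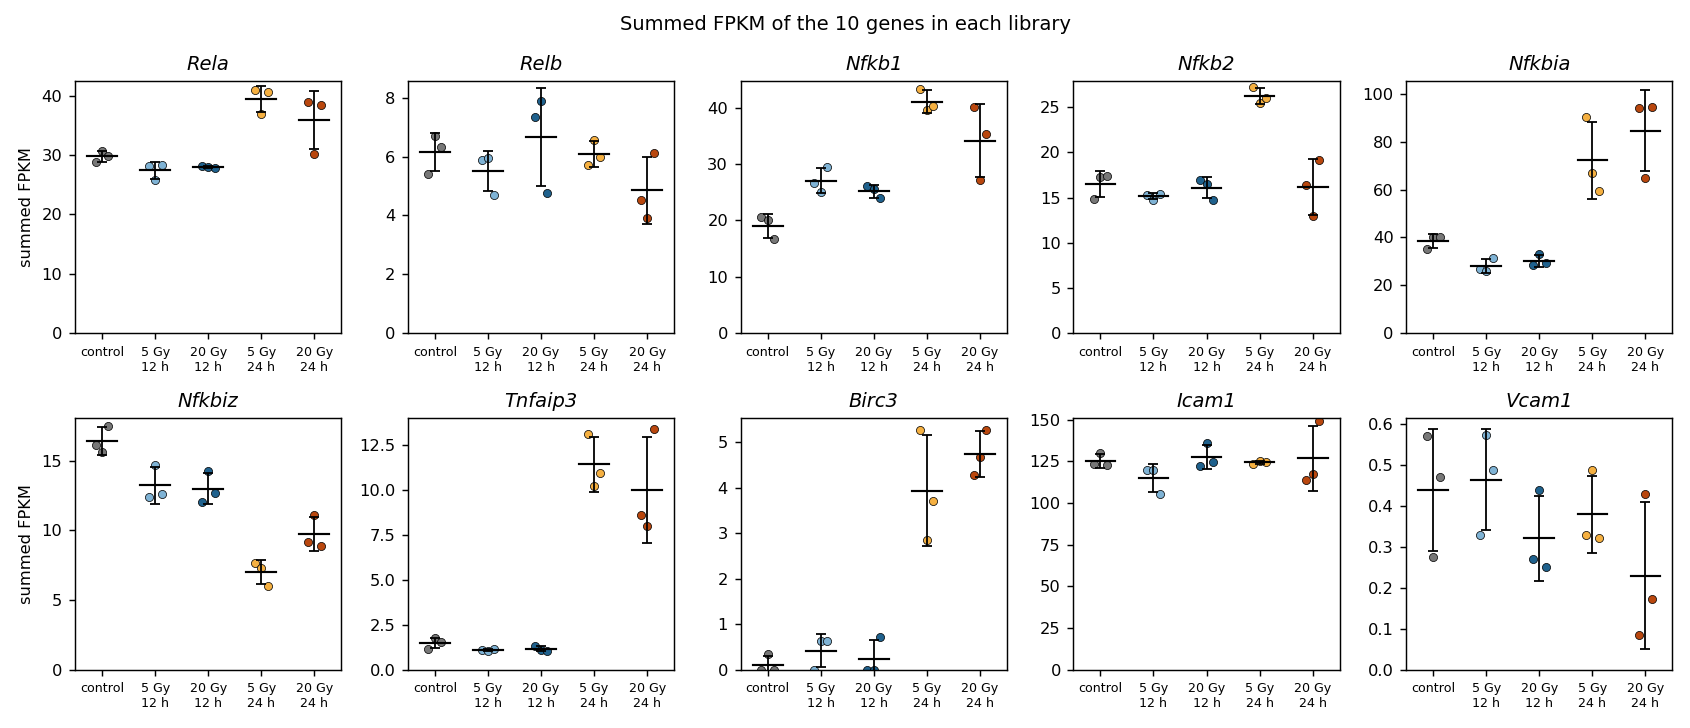
Each panel plots the summed FPKM of a gene (vertical axis from 0, own scale) for the 15 libraries in 5 groups, with 1 point a library and the mean ± SD of 3 libraries in black. Nfkb1, Nfkbia, Tnfaip3 and Birc3 lie above the control libraries in all 24 h libraries, Nfkbiz lies below them, and Icam1 stays near 125 FPKM.

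Differences between groups are log2 fold changes on the log2(FPKM + 1) scale, which understates the change of genes with low FPKM, with the standard error (SE) and the Benjamini-Hochberg adjusted p of limma over all 17895 genes tested. A gene was called when the adjusted p was below 0.05 and the change was at least 1.5-fold on that scale. The exact permutation test of 3 libraries against 3 cannot give a p below 0.1. All comparisons with the control group share the same 3 control libraries.

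At 12 h, 0 of the 9 tested members were called after 5 Gy and 0 after 20 Gy, compared with 9.94% and 8.54% of all genes. Without the fold limit, 1 member passed in limma after 5 Gy (Nfkb1) and 0 after 20 Gy. At unadjusted p below 0.05, 3 passed after 5 Gy and 2 after 20 Gy. At 24 h after 5 Gy, 6 members were called, 5 higher and 1 lower, where 41.3% of all genes were called (20.5% higher, 20.8% lower). At 24 h after 20 Gy, 5 were called, 4 higher and 1 lower, where 40.3% of all genes were called (17% higher, 23.3% lower). The median change of the 9 members at 24 h was 0.64 after 5 Gy and 0.25 after 20 Gy, beside -0.05 and -0.14 over all genes.

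**Figure D2:**
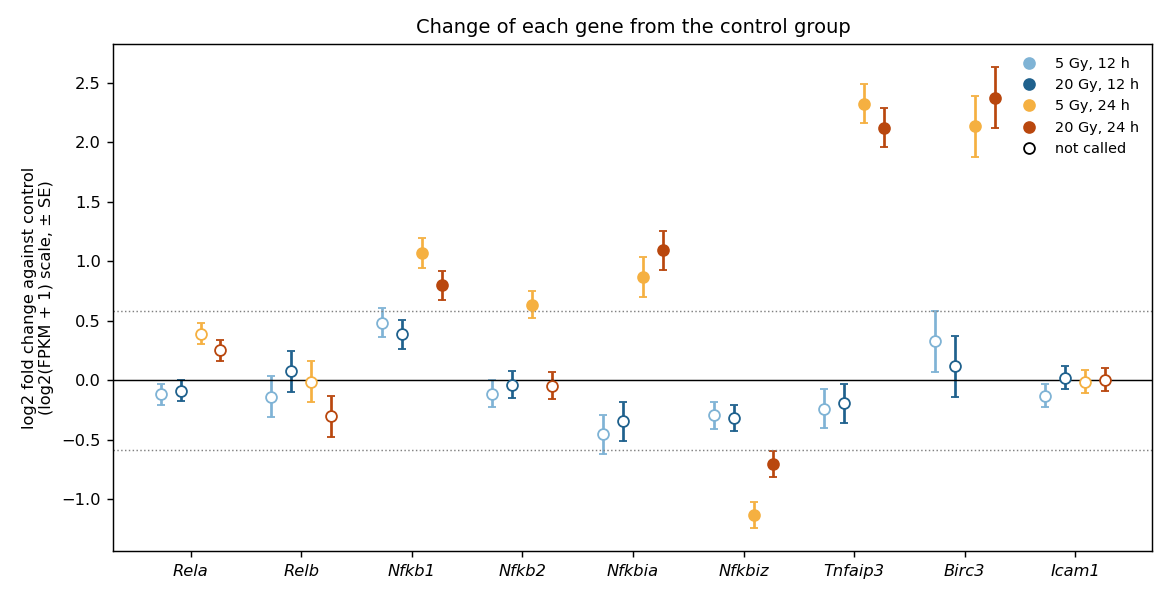
Log2 fold change against the control group (vertical axis, log2(FPKM + 1) scale) for the 9 tested genes, with bars of ± SE of the limma fit from 3 libraries a group, filled points for called changes and dotted lines at 1.5-fold. Called changes occur at 24 h only, up to 2.38 for Birc3 and down to -1.13 for Nfkbiz.

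Rela encodes p65, the main activating subunit of the canonical pathway, and lies on chromosome 1 from 220992533 to 221003249 on the forward strand (Rnor_6.0, as are the positions that follow). Rela was measured at 28.9, 30.7 and 29.8 FPKM in the control libraries, 28.2, 25.8 and 28.3 at 12 h after 5 Gy and 28.2, 27.9 and 27.9 at 12 h after 20 Gy. At 24 h, the values were 40.9, 36.9 and 40.5 after 5 Gy and 39, 30.2 and 38.5 after 20 Gy. All 12 h libraries lay slightly below the controls and all 24 h libraries after 5 Gy above them, while the second library 24 h after 20 Gy overlapped the controls. The log2 fold change at 24 h was 0.39 after 5 Gy (SE 0.09, limma adjusted p = 0.0022) and 0.25 after 20 Gy (adjusted p = 0.028), both short of 1.5-fold. Rela was not called in any comparison. When the libraries were rescaled to a common sum, its rise from 12 h to 24 h after 5 Gy became 0.61 (adjusted p = 0.00022), which passed the 1.5-fold limit.

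Relb encodes a subunit of the non-canonical pathway that pairs with p52, and lies on chromosome 1 from 80517081 to 80545031 on the reverse strand. Relb was measured at 5.43, 6.69 and 6.34 FPKM in the control libraries, 5.87, 5.94 and 4.71 at 12 h after 5 Gy and 7.34, 7.89 and 4.75 at 12 h after 20 Gy. The 24 h libraries held 5.7, 6.56 and 5.99 after 5 Gy and 4.52, 3.91 and 6.14 after 20 Gy. Every exposed group overlapped the control libraries, and no difference of the summed FPKM passed the test. The lowest value was -0.30 at 24 h after 20 Gy (SE 0.17, limma adjusted p = 0.15). Parts of the Relb sum did differ. By its 5 annotated rows alone, the change from 12 h to 24 h after 5 Gy was 0.95 (limma adjusted p = 0.0066). The largest of these rows held only 6.90% of the sum. A short assembled row of 2 exons was called lower at 24 h, by -0.74 after 5 Gy and -0.65 after 20 Gy (adjusted p = 0.026 and 0.047).

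Nfkb1 encodes the p105 precursor of p50, and lies on chromosome 2 from 240773456 to 240890621 on the reverse strand. Nfkb1 was measured at 20.5, 20.1 and 16.6 FPKM in the control libraries, 26.7, 25 and 29.4 at 12 h after 5 Gy and 26, 25.5 and 23.9 at 12 h after 20 Gy. After 24 h the values were 43.4, 39.5 and 40.3 after 5 Gy and 40.1, 27.1 and 35.3 after 20 Gy. No exposed library overlapped the controls, and every one lay above them, already at 12 h. At 24 h the mean was 41.1 ± 2.04 FPKM (SD, n = 3) after 5 Gy, which is a log2 fold change of 1.07 (SE 0.12, limma adjusted p = 9.6e-06). After 20 Gy it was 34.2 ± 6.55 FPKM (n = 3) with a change of 0.80 (adjusted p = 0.00013). At 12 h the change was 0.49 after 5 Gy (adjusted p = 0.016) and 0.39 after 20 Gy (adjusted p = 0.05), so neither was called. The rise is that of the sum of 3 rows. At 24 h, the row with the highest mean changed by 1.44 after 5 Gy, which was called, and by 0.07 after 20 Gy, which was not. The annotated row alone changed by -0.02 after 5 Gy and 1.51 after 20 Gy, neither called.

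Nfkb2 encodes the p100 precursor of p52, and lies on chromosome 1 from 266050380 to 266059256 on the forward strand. Nfkb2 was measured at 14.9, 17.3 and 17.4 FPKM in the control libraries, 15.3, 14.8 and 15.4 at 12 h after 5 Gy and 17, 16.5 and 14.8 at 12 h after 20 Gy. In the 24 h groups, FPKM was 27.2, 25.4 and 26 after 5 Gy and 16.4, 13 and 19.1 after 20 Gy. Only the 24 h libraries after 5 Gy stood apart, above every library of the other groups. Their mean of 26.2 ± 0.896 FPKM (SD, n = 3) gave a log2 fold change of 0.64 against the control group (SE 0.11, limma adjusted p = 0.00036). At 24 h after 20 Gy the mean was 16.1 ± 3.09 FPKM (n = 3) and the change -0.04 (adjusted p = 0.76). The rise after 5 Gy stood close to the 1.5-fold limit. It was 0.55 after quantile normalization, 0.57 without the first control library and 0.37 by the annotated row alone, none of which was called.

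Nfkbia encodes IkBalpha, the inhibitor that holds RelA dimers in the cytoplasm, and lies on chromosome 6 from 76267228 to 76270457 on the reverse strand. Nfkbia was measured at 35.2, 40.3 and 40.2 FPKM in the control libraries, 26.7, 25.8 and 31.4 at 12 h after 5 Gy and 28.3, 33 and 29.3 at 12 h after 20 Gy. The later libraries, at 24 h, held 90.3, 66.7 and 59.6 after 5 Gy and 94.3, 65 and 94.5 after 20 Gy. All 12 h libraries lay below the controls and all 24 h libraries above them. The 12 h differences of -0.45 (limma adjusted p = 0.074) and -0.34 (adjusted p = 0.18) were not called. At 24 h the mean reached 72.2 ± 16.1 FPKM (SD, n = 3) after 5 Gy, which is a log2 fold change of 0.87 (SE 0.16, adjusted p = 0.00054). After 20 Gy it reached 84.6 ± 17 FPKM (n = 3), a change of 1.10 (adjusted p = 9.0e-05). Nfkbia has a single row in the table, so this value does not depend on how reads were divided between rows.

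Nfkbiz encodes IkBzeta, a nuclear member of the IkB family that acts on a subset of target genes, and lies on chromosome 11 from 47243342 to 47271487 on the forward strand. Nfkbiz was measured at 16.1, 15.6 and 17.5 FPKM in the control libraries, 12.4, 14.7 and 12.6 at 12 h after 5 Gy and 12, 14.2 and 12.7 at 12 h after 20 Gy. Values at 24 h were 7.64, 7.31 and 6.02 after 5 Gy and 9.19, 11.1 and 8.9 after 20 Gy. No exposed library reached the lowest control, and Nfkbiz was the only member that fell past the threshold. At 24 h the mean was 6.99 ± 0.855 FPKM (SD, n = 3) after 5 Gy, which is a log2 fold change of -1.13 (SE 0.11, limma adjusted p = 2.2e-06). After 20 Gy it was 9.73 ± 1.2 FPKM (n = 3), with a change of -0.70 (adjusted p = 0.00014). The 12 h differences, -0.29 and -0.32, were not called (adjusted p = 0.084 and 0.069).

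Tnfaip3 encodes A20, a ubiquitin-editing enzyme that ends NF-kB signalling, and lies on chromosome 1 from 14401143 to 14416335 on the reverse strand. Tnfaip3 was measured at 1.17, 1.77 and 1.52 FPKM in the control libraries, 1.12, 1.03 and 1.14 at 12 h after 5 Gy and 1.34, 1.09 and 1.07 at 12 h after 20 Gy. FPKM at 24 h was 13.2, 10.2 and 10.9 after 5 Gy and 8.63, 7.98 and 13.4 after 20 Gy. The lowest 24 h library lay far above the highest library of the control and 12 h groups. The mean rose from 1.49 ± 0.301 FPKM (SD, n = 3) without exposure to 11.4 ± 1.53 (n = 3) at 24 h after 5 Gy, by 2.32 on the log2 scale (SE 0.16, limma adjusted p = 1.4e-07). After 20 Gy it rose to 10.0 ± 2.97 FPKM (n = 3), a change of 2.12 (adjusted p = 3.2e-07). The single row with the highest mean changed by 1.23 at 24 h after 20 Gy and was not called, so this call rests on the sum of the 4 rows. The same holds for its change from 12 h to 24 h after 20 Gy, which was 1.08 by that row.

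Birc3 encodes cIAP2, a ubiquitin ligase that acts with the TNF receptor complexes and restrains the non-canonical pathway, and its annotated rows lie on chromosome 8 from 6048969 to 6076598 on the reverse strand. Birc3 was listed at 0, 0.343 and 0 FPKM in the control libraries, 0, 0.638 and 0.626 at 12 h after 5 Gy and 0, 0 and 0.724 at 12 h after 20 Gy. By 24 h, it stood at 5.27, 2.85 and 3.71 after 5 Gy and 4.28, 4.68 and 5.27 after 20 Gy. Every 24 h library lay above every library of the other groups. Relative to the controls, Birc3 changed by 2.13 after 5 Gy (SE 0.26, limma adjusted p = 1.3e-05) and 2.38 after 20 Gy (adjusted p = 5.5e-06). Since several libraries are listed at 0, the size of the change depends on the pseudocount, and with 0.1 in place of 1 it was 4.58 and 4.88.

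Birc3 lies in an assembled locus that also holds its neighbour and close relative Birc2, and unnamed rows of a locus with several names were not assigned to a gene. With the 2 unnamed rows that overlap Birc3 and not Birc2 added, a choice made after the values were seen, the sum was 1.42, 1.46 and 1.78 FPKM in the control libraries. At 24 h this sum was 9.15, 5.67 and 6.3 after 5 Gy and 7.41, 6.32 and 9.9 after 20 Gy. The 24 h libraries again stood above all controls, with changes of 1.63 (limma adjusted p = 5.2e-06) and 1.78 (adjusted p = 2.6e-06). The added rows did not move together. One was at most 0.0301 FPKM in the controls and had a mean of 2.62 and 2.54 FPKM at 24 h after 5 Gy and 20 Gy, with both changes called. The other stood at 1.42, 1.09 and 1.78 FPKM in the controls and had lower means of 0.481 and 0.598 FPKM at 24 h, log2 differences of -0.72 and -0.65 that were not called (limma adjusted p = 0.058 and 0.084). How reads shared by Birc2 and Birc3 were divided between them was not tested, and the values of both genes are uncertain to that extent.

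Icam1 encodes the intercellular adhesion molecule that binds leukocyte integrins, and lies on chromosome 8 from 22035256 to 22047059 on the forward strand as a single row. Icam1 was measured at 123, 130.2 and 123 FPKM in the control libraries, 119.7, 119.6 and 105 at 12 h after 5 Gy and 122, 136 and 125 at 12 h after 20 Gy. The libraries of 24 h had 123, 125 and 125 after 5 Gy and 114, 117 and 149 after 20 Gy. The 24 h groups overlapped the controls, and 12 h after 5 Gy all libraries lay just below them. After 5 Gy, Icam1 differed from the controls on the log2 scale by -0.13 at 12 h and -0.01 at 24 h, and after 20 Gy by 0.02 and 0.01 (SE 0.09 each). The limma adjusted p ranged from 0.39 to 0.96. The sign at 24 h after 5 Gy depended on the scaling, and quantile normalization gave 0.27 there (adjusted p = 0.015). At 24 h after 20 Gy it gave 0.26 (adjusted p = 0.019), with the sign kept. Both were short of 1.5-fold, and Icam1 was not called under any alternative.

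Vcam1 encodes the vascular cell adhesion molecule, and lies on chromosome 2 from 219071193 to 219097619 on the reverse strand. Vcam1 was measured at 0.571, 0.277 and 0.471 FPKM in the control libraries, 0.33, 0.574 and 0.489 at 12 h after 5 Gy and 0.271, 0.441 and 0.252 at 12 h after 20 Gy. The 24 h libraries held 0.329, 0.488 and 0.322 after 5 Gy and 0.0849, 0.431 and 0.174 after 20 Gy. All groups overlapped the controls, with exact permutation p between 0.2 and 0.7 against the control group. These values correspond to between 12.1 and 74.1 reads of 150 bases per library, compared with 11999 to 17098 for Icam1. With means this low, Vcam1 was not entered in the limma fit, and the exact test cannot go below p = 0.1 with 3 libraries a group.

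The times were compared directly within each dose. From 12 h to 24 h after 5 Gy, 6 of 9 tested members were called, 5 higher and 1 lower, where 36.4% of all genes were called (17.1% higher, 19.3% lower). Nfkb1 rose by 0.59, Nfkb2 by 0.75, Nfkbia by 1.32, Tnfaip3 by 2.56 and Birc3 by 1.80 on the log2 scale, and Nfkbiz changed by -0.83. The call of Nfkb1 stood at the 1.5-fold limit and was lost without the first or second 12 h library or the first 24 h library, where the change was 0.58, 0.54 and 0.55. It was also lost by the row with the highest mean (0.97, adjusted p = 0.11), and that of Nfkb2 by its annotated row, which is also its row of highest mean (0.38, adjusted p = 0.067). After 20 Gy, 3 members were called from 12 h to 24 h and all were higher, where 36.3% of all genes were called and 14.1% were higher. These were Nfkbia (1.44), Tnfaip3 (2.31) and Birc3 (2.26). Nfkb1 and Nfkbiz changed by 0.41 and -0.39 (limma adjusted p = 0.014 and 0.01), short of 1.5-fold.

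The doses were then compared within each time. At 12 h, 0 of 9 members differed between 20 Gy and 5 Gy by limma, at an unadjusted p below 0.05 as well (0 of 9), where 0.123% of all genes were called. At 24 h, Nfkb2 was called lower after 20 Gy than after 5 Gy, 1 of 9 members where 2.42% of all genes were called and 1.46% were lower. Its difference was -0.68 on the log2 scale (SE 0.11, limma adjusted p = 0.0063), and all 3 libraries after 20 Gy lay below all 3 after 5 Gy. In a fit of these 2 groups alone the adjusted p was 0.13, and without the second library after 20 Gy the difference was -0.54. Neither was called. Nfkbiz was higher after 20 Gy than after 5 Gy by 0.43 (adjusted p = 0.049), short of 1.5-fold. The change from 12 h to 24 h differed between the doses for 0 of 9 members in limma, where 0.553% of all genes passed, and for 2 at unadjusted p below 0.05, with the largest difference for Nfkb2 (-0.76, adjusted p = 0.06).

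The single rows of these genes were also tested, with 17 of 35 rows above the limit of 0.5 FPKM. At 12 h, 0 rows were called after either dose, where 4.33% and 3.7% of all rows were called. At 24 h, 8 were called after 5 Gy and 6 after 20 Gy, where 24.1% and 24.2% were called. Both main rows of Nfkbiz were lower at 24 h. The annotated row changed by -1.21 after 5 Gy and -0.68 after 20 Gy, and the assembled row by -0.97 and -0.64.

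For Nfkb2, the annotated row and an assembled row that begins 1306 bases upstream went different ways at the higher dose. The annotated row was measured at 10.2, 12.8 and 13.5 FPKM in the control libraries, 15, 18.4 and 14.5 at 24 h after 5 Gy and 9.34, 6.43 and 7.65 at 24 h after 20 Gy. The assembled row was measured at 0.552, 0.457 and 0.3996, 4.71, 6.8 and 4.16 and 2.35, 2.39 and 3.17 FPKM in the same groups. The assembled row stood above the controls in all 24 h libraries, with log2 fold changes of 2.06 after 5 Gy and 1.30 after 20 Gy (limma adjusted p = 3.6e-06 and 0.00012 over all 41932 rows tested). The annotated row lay below the controls in all libraries 24 h after 20 Gy, by -0.58 (adjusted p = 0.018). This was just short of 1.5-fold and was not called. Its difference between the doses at 24 h was -0.95 (adjusted p = 0.014). A further assembled row, with 21.5% of the sum over all libraries, changed by 0.54 and 1.09 at 24 h after 5 Gy and 20 Gy. Neither was called (adjusted p = 0.66 and 0.33). Between 12 h and 24 h after 20 Gy the annotated row alone fell by 0.65 on the log2 scale (limma adjusted p = 0.012), a call that the sum did not give. Another division of the reads over these overlapping rows and a real shift between transcripts cannot be told apart.

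Among other members, the share of the sum held by a row moved widely between libraries. The leading row of Nfkb1 held 21.8% to 98.4% of its sum. The leading row of Tnfaip3 held 0% to 97.2%, and that of Relb 0% to 79.2%. The annotated row of Rela kept 92.9% to 98.9% of its sum.

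**Figure D3:**
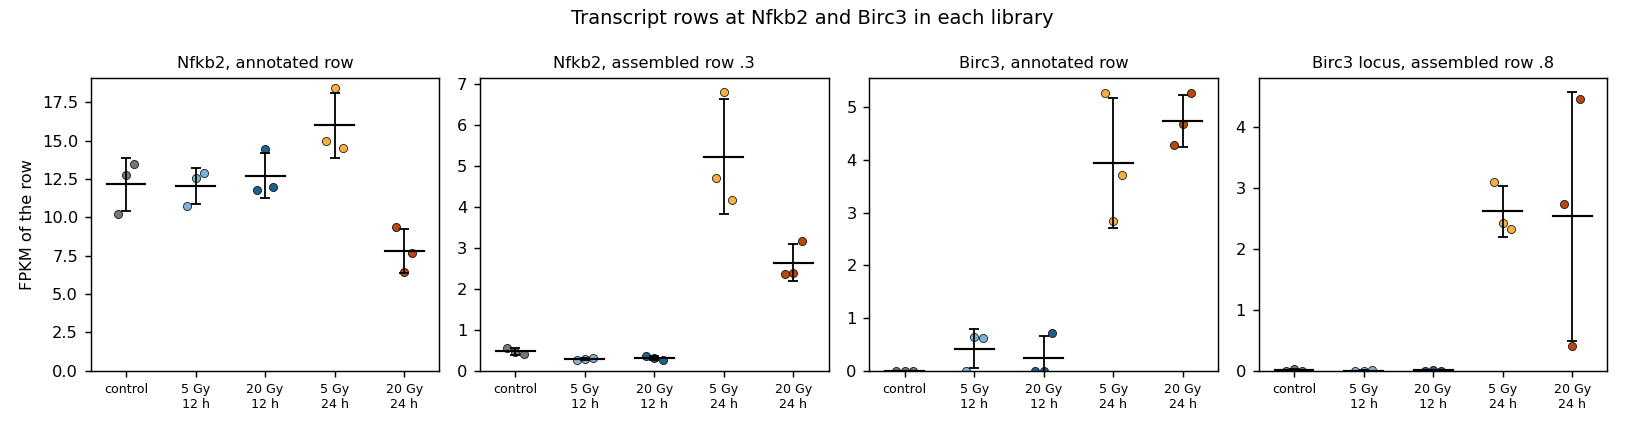
FPKM of 4 single transcript rows (vertical axes from 0, own scales) in the 15 libraries by group, with 1 point a library and the mean ± SD of 3 libraries in black. Both Nfkb2 rows are higher at 24 h after 5 Gy than after 20 Gy, and the plotted annotated row of Birc3 and assembled row of its locus are at most 0.724 FPKM outside the 24 h groups.

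The wider pathway was described with 6 lists of 96 further genes, of which 94 were in the table and 77 were tested. At 12 h, 15 were called after 5 Gy, 4 higher and 11 lower, and 10 after 20 Gy, 3 higher and 7 lower. At 24 h, 39 were called after 5 Gy, 30 higher and 9 lower, and 36 after 20 Gy, 25 higher and 11 lower, and 32 were called after both doses. Over all genes, 9.94% and 8.54% were called at 12 h after 5 Gy and 20 Gy. The shares at 24 h were 41.3% (20.5% higher, 20.8% lower) and 40.3% (17% higher, 23.3% lower). The median change over the 77 genes at 24 h was 0.47 after 5 Gy and 0.24 after 20 Gy. The largest called change of each gene is given in the following, on the log2 scale against the control group, with SE from 0.07 to 0.67 and a limma adjusted p of at most 0.0192.

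Of 27 receptors and adaptors upstream of IKK, 25 were tested, and 16 were called at 24 h after 5 Gy (12 higher, 4 lower) and 14 after 20 Gy (9 higher, 5 lower). The TRAF adaptors, which link the receptors to IKK, were higher. Traf5 rose from 2.28 ± 0.00823 to 13 ± 0.985 FPKM (SD, n = 3 each) at 24 h after 5 Gy, a change of 2.09, and Traf1, Traf2 and Traf3 changed by 1.33, 1.26 and 1.24 in the same comparison. Traf6 was lower at 12 h after both doses and higher at 24 h, by 0.84 after 20 Gy. Called higher at 24 h after both doses were the TAK1 partners Tab1 and Tab3, with 1.43 and 1.65 after 20 Gy, and Malt1 and Ripk2, with 1.27 and 1.01 after 5 Gy. Tab2 (0.69), Irak4 (0.60) and the TNF receptor gene Tnfrsf1a (0.64) were called at 24 h after 5 Gy, while their values after 20 Gy, 0.49, 0.47 and 0.44, were short of 1.5-fold. The receptor genes Tnfrsf12a, Il1r1, Tnfrsf1b and Tlr3 fell, by -3.71, -1.65, -0.94 and -0.66 at 24 h after 20 Gy, and the adaptor Bcl10 changed by -0.87 there. Tnfrsf12a, the receptor of TWEAK, went from 79.9 ± 23.6 to 5.39 ± 2.53 FPKM (SD, n = 3 each).

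Of 10 genes of the IKK kinases and of the route from DNA damage to NF-kB, all were tested. At 24 h, 7 were called after 5 Gy (6 higher, 1 lower) and 4 after 20 Gy (3 higher, 1 lower). The count after 20 Gy lay near the share of all genes called in either direction. Chuk, which encodes IKKalpha, rose from 5.54 ± 0.172 to 19.8 ± 3.01 FPKM (SD, n = 3 each) at 24 h after 20 Gy, a change of 1.66. Ikbkb and Ikbkg, the genes of IKKbeta and of the scaffold NEMO, changed by 0.84 after 20 Gy and 0.71 after 5 Gy at 24 h. Pias4, a SUMO ligase of the DNA damage route, rose by 1.11 and Tbk1 by 0.82 at 24 h after 5 Gy. Pidd1, known as a p53 target that acts on NEMO, was already higher at 12 h, by 0.85 after 20 Gy. Ikbke, a kinase related to IKK, fell from 18.4 ± 4.41 to 3.4 ± 0.354 FPKM (SD, n = 3 each) at 24 h after 20 Gy, a change of -2.11. Map3k14, the kinase NIK of the non-canonical pathway, was lower at 12 h and changed by -0.88 after 5 Gy.

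Of 7 other subunit and IkB genes, 4 were called at 24 h after each dose and all 4 were higher. Rel, the gene of c-Rel, rose from 1.86 ± 0.185 to 8.37 ± 0.272 FPKM (SD, n = 3 each) at 24 h after 20 Gy, a change of 1.71, after being lower than the control group at 12 h after both doses. The inhibitor genes Nfkbib and Nfkbie changed by 1.05 and 1.04, and Nkrf, a repressor, by 1.22, at 24 h after 5 Gy. Of 15 negative regulators, 14 were tested. At 24 h, 4 were called after 5 Gy (3 higher, 1 lower) and 5 after 20 Gy (3 higher, 2 lower). Both counts lay near or below the share of all genes called in either direction. Peli1, N4bp1 and Itch rose by 1.88, 1.63 and 0.87 at 24 h after 5 Gy. Zc3h12a, an RNase that degrades cytokine transcripts, fell in all 4 exposed groups, by -1.27 at 24 h after 20 Gy, and Tnfaip8 changed by -0.63 there. Birc2 was called higher at 12 h after 5 Gy only, with its annotated row near 0 in the control libraries, and is uncertain for the reason given with Birc3.

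Of 21 other genes widely described as NF-kB targets, 13 were tested, and 6 were called at 24 h after each dose (4 higher, 2 lower). This count lay near the share of all genes called in either direction. Gadd45b, a stress response gene, was lower at 12 h and rose to 163 ± 26.9 FPKM at 24 h after 5 Gy from 24.3 ± 2.56 in the control group (SD, n = 3 each), a change of 2.69. Ptgs2, the gene of cyclooxygenase-2, rose from 1.84 ± 0.195 to 16.3 ± 1.01 FPKM (SD, n = 3 each) at 24 h after 20 Gy (2.61), and Irf1 and Tnfaip6 changed by 2.00 and 1.72. Ier3 fell in all 4 exposed groups, from 87 ± 8.52 to 16.8 ± 2.27 FPKM (SD, n = 3 each) at 24 h after 20 Gy (-2.31). Tnfaip2 changed by -0.73 there. The chemokine gene Ccl2 fell from 1.97 ± 0.343 FPKM to near 0, at 0.158 ± 0.141 (SD, n = 3 each), at 12 h after 20 Gy (-1.36). It was also called lower after 5 Gy, with -1.32 at 12 h and -1.11 at 24 h. Csf1 was called higher at 12 h after 20 Gy only, by 0.81. The cytokine genes Il1a, Il1b and Csf2 were listed at 0 in all 15 libraries, and Tnf reached at most 0.027 FPKM. Il6 was listed at 0 in the control and 12 h libraries and had means of 0.348 ± 0.0259 and 0.453 ± 0.399 FPKM (SD, n = 3 each) at 24 h after 5 Gy and 20 Gy, and was not tested.

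Of 16 other adhesion molecules of the endothelium, 15 were in the table and 8 were tested. At 24 h, 2 were called after 5 Gy (1 higher, 1 lower) and 3 after 20 Gy (2 higher, 1 lower). Both counts lay near or below the share of all genes called in either direction. Jam3, a junctional adhesion molecule, rose in all 4 exposed groups, from 35.4 ± 4.38 to 67.2 ± 5.57 FPKM (SD, n = 3 each) at 24 h after 5 Gy (0.91). Cd99 fell from 99.1 ± 6.95 to 51.6 ± 2.2 FPKM in the same comparison (-0.93), and Mcam, at low FPKM, changed by 0.73 at 24 h after 20 Gy. The selectin genes Sele and Selp, which support leukocyte rolling, were low. Sele was listed at 0 in every control and 12 h library and had means of 0.326 ± 0.0943 and 0.346 ± 0.0545 FPKM (SD, n = 3 each) at 24 h after 5 Gy and 20 Gy. Selp reached at most 0.0278 FPKM in any library and Icam2 at most 0.783. These were below the limit and not tested.

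**Figure D4:**
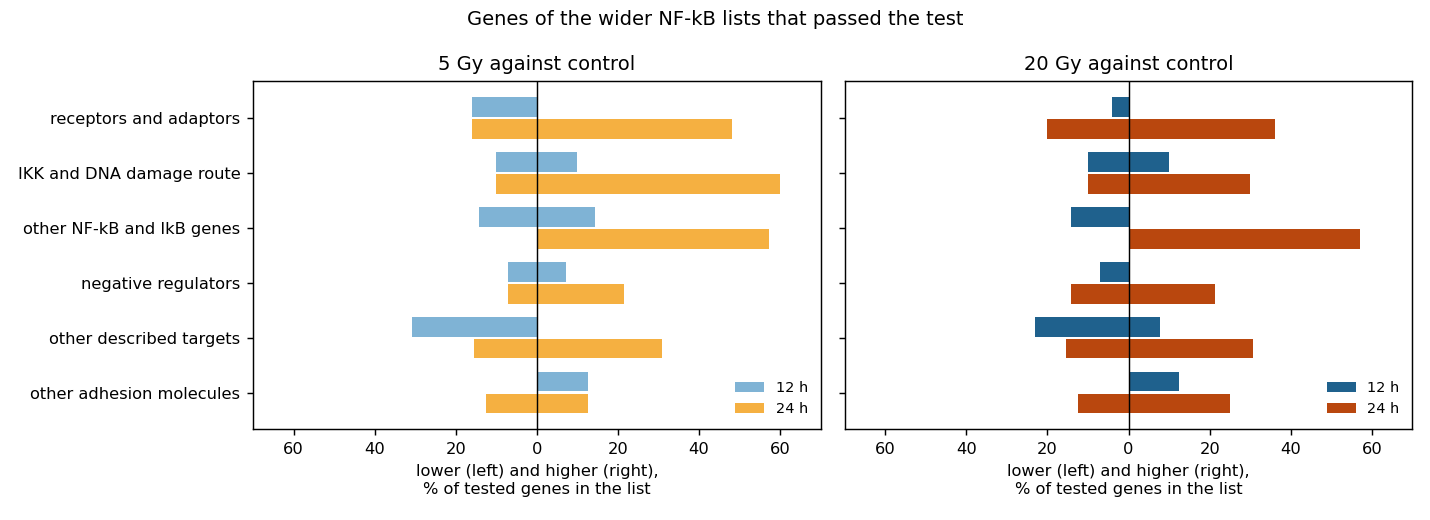
Percent of the tested genes of each list (horizontal axis) that were called higher (right) or lower (left) than the controls 12 h and 24 h after 5 Gy (left panel) and 20 Gy (right panel). The list of other NF-kB and IkB genes has 4 of 7 genes called higher and 0 lower at 24 h after each dose. Over all genes, not drawn here, 20.5% were called higher and 20.8% lower at 24 h after 5 Gy. After 20 Gy these shares were 17% and 23.3%.

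For each member that was called against the control group, the genes with the most similar profile were taken, by the Pearson correlation of log2(FPKM + 1) over the 15 libraries among genes with a mean of at least 5 FPKM. The libraries fall into the same 5 groups of 3, so these values describe a shared pattern over groups. Tnfaip3 was closest to Nfkbil1 (r = 0.995) and Smad3 (0.992). Nfkb1 was closest to Scaf4 (r = 0.973) and Lman2l (0.971), and Nfkbia to Cct7 (0.982) and Eif3d (0.981). Birc3 was closest to Smg1 (r = 0.984) and Map3k13 (0.981), and Nfkbiz to the locus AABR07000658.1 (0.970) and Kif20a (0.966). For Nfkb2 the closest gene was Aars (r = 0.918), which was likewise highest at 24 h after 5 Gy, with a mean of 83.8 FPKM there and 47 after 20 Gy, followed by Dlg1 (0.916).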

How the data were processed

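The messenger RNA of 15 BMEC cultures was analysed. The authors trimmed the reads with Trimmomatic, mapped them to Rnor_6.0 with HISAT2 2.0.13, assembled transcripts with StringTie and deposited FPKM values for 85322 transcript rows. The study also names Kallisto counts and edgeR, and counts were not analysed here. FPKM was summed per gene and not rescaled between libraries, and 4738 unnamed rows in 909 loci with several names stayed unassigned. Sums with a mean of at least 0.5 FPKM were tested on log2(FPKM + 1) with limma 3.58.1 in R 4.3.3, modelling 5 group means (10 residual degrees of freedom) with a trended variance prior, two-sided with Benjamini-Hochberg adjustment over all 17895 genes. The interaction term needed only an adjusted p below 0.05. The fit was tested on simulated data. Single values were compared by two-sided exact permutation. Depth was read from the steps between low FPKM values of short rows with 1 exon, of which 76.5% to 81.1% were whole multiples within 0.03, and at most 5.48% at the median of other steps. Read equivalents cover counting error only.

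The members, the wider lists and the tests were chosen with earlier results of these data known. All members are named in every comparison, and of the wider lists the genes called against the control group, each with its largest change. Alternatives were another pseudocount, filter, scaling, fold limit, variance prior, set of groups or rows, the replicate number as a block, and each library left out in turn.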

Additional observations from a re-analysis of the deposited data

Results flagged for a closer look

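For some members the libraries of both times lay on opposite sides of the control libraries, with every 12 h library below and every 24 h library above. This held for Rela after 5 Gy, where the log2 difference from 12 h to 24 h was 0.51 (limma adjusted p = 0.00038), short of 1.5-fold. It also held for Nfkbia after 5 Gy (1.32) and after 20 Gy (1.44), and for Tnfaip3 after 5 Gy (2.56), each called between the times. The differences from the control group at 12 h were not called for these genes. For Rela and Tnfaip3 at 12 h after 5 Gy they were small, at -0.12 and -0.24 (limma adjusted p = 0.42 and 0.35). The share of all genes with this pattern was not computed, so the pattern is not shown to be particular to these genes. By calls, which are another measure, 41.3% and 40.3% of all genes differed from the control group at 24 h after 5 Gy and 20 Gy.

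The change of Nfkb2 at 24 h differed between the doses by -0.68 on the log2 scale (limma adjusted p = 0.0063). This call was lost in a fit of only the groups compared (limma adjusted p = 0.13). It was also lost without the second library 24 h after 20 Gy, where the difference was -0.54. The change from 12 h to 24 h did not pass as different between the doses (-0.76, limma adjusted p = 0.06).

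An unnamed assembled row that overlaps Birc3 and was in no gene sum had a mean of 2.62 FPKM at 24 h after 5 Gy and 2.54 FPKM at 24 h after 20 Gy, and at most 0.0301 FPKM in a control library. After 20 Gy its libraries held 2.74, 0.401 and 4.47 FPKM. The other unnamed row that overlaps Birc3 and not Birc2 went from 1.43 FPKM in the control group to 0.481 and 0.598 FPKM, which was not called.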

How the results depend on the processing

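FPKM without counts, 3 libraries a group, shared controls and the lack of a 24 h unexposed culture limit these results, and low genes such as Vcam1 and Birc3 have few reads behind them. Member counts kept within 1.5 times the values given under a pseudocount of 0.1, other filters, quantile normalization, a variance prior without trend, and the replicate block, and for the settings below they moved. Whether the replicate numbers pair the libraries could not be settled from these data. After removal of the group means, same-numbered libraries correlated at a median of 0.0088 (-0.18 to 0.23). Those with different numbers correlated at 0.0063 (-0.21 to 0.20). Of 15 libraries, 9 correlated best with their own number, and the number to be had without any pairing was not computed. With the replicate block, 0, 0, 6, 5, 6, 3, 0 and 1 members were called in the order of the comparisons and 0 for the interaction, as without it. With annotated rows only, 3 members were called at 24 h after either dose, and with the row of highest mean 3 at 24 h after 20 Gy. A fold change of at least 2 left 3 at 24 h after 20 Gy, 3 between the times after 5 Gy and 0 between the doses at 24 h. No fold limit gave 1 at 12 h after 5 Gy, 6 between the times after 20 Gy and 2 between the doses at 24 h. A fit of only the groups compared gave 0 between the doses at 24 h, and rescaling to the same sum gave 1 for the interaction. Leaving out 1 library gave 0 to 1 between the doses at 24 h (0 without the second library 24 h after 20 Gy) and 0 to 1 for the interaction (1 without the third).

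Directions that turned belonged to values near 0 or to another choice of rows, and the cause was not tested. With another choice of rows they were not all near 0. Birc3 at 12 h after 5 Gy was 0.33 by the rule and -0.23 with its unnamed rows. Using the row of highest mean, Relb changed by 0.41 and -1.27 at 12 h, 0.80 and 0.0013 at 24 h (5 Gy, then 20 Gy) and 1.27 between the times after 20 Gy, Nfkb1 by -0.094 and Nfkb2 by 0.065 at 12 h after 20 Gy, and Tnfaip3 by 0.067 and 0.15 at 12 h. With annotated rows only, 12 h after 20 Gy, Relb, Nfkb1 and Nfkb2 changed by -0.21, -0.42 and 0.065. Relb and Nfkb1 changed by 0.59 and -0.015 at 24 h after 5 Gy in that setting, Relb by 0.014 between the times after 20 Gy, and Nfkb1 by -0.61 between them after 5 Gy. After rescaling, Relb changed by 0.12 and Icam1 by 0.13 at 24 h after 5 Gy, and Nfkb2 by 0.0098 and 0.032 at 12 h and 24 h after 20 Gy. Between the times after 20 Gy, rescaling gave 0.022 for Nfkb2 and 0.014 for Icam1. Quantile normalization gave Icam1 0.27 at 24 h after 5 Gy and 0.16 between the times after 20 Gy. Birc3 with its unnamed rows changed by -0.23 and -0.21 at 12 h. Leaving out 1 library, the ranges that crossed 0 were for Relb -0.042 to 0.27 at 12 h after 20 Gy and -0.087 to 0.042 at 24 h after 5 Gy. For Nfkb2 they were -0.10 to 0.022 and -0.17 to 0.096 at 12 h and 24 h after 20 Gy and -0.13 to 0.13 between them. For Birc3 and Icam1 at 12 h after 20 Gy they were -0.14 to 0.26 and -0.021 to 0.055, and for Icam1 -0.025 to 0.016 and -0.11 to 0.077 at 24 h and -0.14 to 0.053 between the times after 20 Gy.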
